A study of Mus musculus with 33 samples.

Results

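Mitophagy receptors and regulators were followed here as 10 genes, taken by symbol from the 55376 genes of the count tables: *Pink1*, *Bnip3*, *Bnip3l*, *Fundc1*, *Optn*, *Sqstm1*, *Calcoco2*, *Tax1bp1*, *Tfeb* and *Ulk1*. All 10 symbols were found, and the rule that lists them uses no measured value. The study sequenced total RNA from bone marrow populations of old C57BL/6 male mice, aged 24 to 29 months. Treated mice drank water with nicotinamide riboside (NR), a precursor of NAD, for 4 to 6 weeks. Cohort 2 held 24 libraries of hematopoietic stem cells (HSCs), of CLPs, the common lymphoid progenitors, and of GMPs, the progenitors of granulocytes and monocytes. Each cell type came from untreated old mice (O-WT, n = 4) and NR-treated old mice (O-NR, n = 4). Cohort 1 held 9 HSC libraries: O-WT (n = 2), O-NR (n = 4), and O-NR-RC (n = 3), from mice in which NR was withdrawn for 2 months after treatment. No young mice and no gene deletion are among these libraries, so each comparison is between old wild-type mice or between cell types of old mice. Cells were sorted as Lin- cKit+ Sca1+ CD34- Flk2- CD150+ for HSCs, Lin- Il7ra+ Flk2+ for CLPs and Lin- Sca1- cKit+ CD34+ Fcgr+ for GMPs. The labels do not say whether replicates came from separate mice, so p-values measure the spread between samples, part of which may be technical.

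Mitophagy is the removal of damaged or surplus mitochondria by autophagosomes, which fuse with lysosomes. In the ubiquitin-dependent route the kinase PINK1 builds up on depolarized mitochondria and phosphorylates ubiquitin and Parkin. Adaptors that bind both ubiquitin and the ATG8 proteins of the autophagosome then bridge cargo and membrane. They are optineurin, p62, NDP52 and TAX1BP1, encoded by *Optn*, *Sqstm1*, *Calcoco2* and *Tax1bp1*. In the receptor route, proteins that sit in the outer mitochondrial membrane (BNIP3, NIX and FUNDC1, encoded by *Bnip3*, *Bnip3l* and *Fundc1*) bind ATG8 proteins directly; NIX is known for clearing mitochondria from maturing red cells. ULK1 is the kinase that starts autophagosome formation, and TFEB is a transcription factor that drives lysosomal and autophagy genes. HSCs are known to rely on mitophagy to keep a low-activity mitochondrial pool.

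RefSeq promoter windows of 300 bases (250 before to 50 after the start site, GRCm38.p6) were matched for 8 of the 10 genes; *Bnip3l* and *Calcoco2* had no entry. The windows were searched on both strands for 4 motifs. CACGTG, the E-box, was present in 7.15% of all 32851 mouse windows. ACGTG, the core of the hypoxia response element, which every E-box also holds, was in 19.6%. TGACNNNGC, the antioxidant response element, was in 12.4%, and GGGCGG, the GC box, in 35.7%. The sequences below are the 120 bases before the start site, 5′ to 3′ on the gene's own strand, with matches in capitals. They are shown for *Pink1* and *Ulk1*, the members highest in HSCs by the tests below, for *Tax1bp1*, which was highest in GMPs, and for *Bnip3*, the member with the most matches.
Pink1, chr4:138326297-138326416, minus strand: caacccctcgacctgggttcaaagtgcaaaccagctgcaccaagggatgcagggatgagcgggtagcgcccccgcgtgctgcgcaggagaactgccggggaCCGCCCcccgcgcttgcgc
Ulk1, chr5:110810082-110810201, minus strand: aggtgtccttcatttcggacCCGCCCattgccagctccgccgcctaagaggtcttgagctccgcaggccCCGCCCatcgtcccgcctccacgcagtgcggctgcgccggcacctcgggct
Tax1bp1, chr6:52713609-52713728, plus strand: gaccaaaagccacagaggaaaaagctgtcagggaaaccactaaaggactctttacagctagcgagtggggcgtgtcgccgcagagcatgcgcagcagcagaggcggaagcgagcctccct
Bnip3, chr7:138909507-138909626, minus strand: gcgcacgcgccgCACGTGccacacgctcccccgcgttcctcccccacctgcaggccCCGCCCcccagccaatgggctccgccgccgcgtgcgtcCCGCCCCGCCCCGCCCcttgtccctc
The *Bnip3* window was the only one of the 8 genes' windows with the E-box, starting 108 bases before the start site, and it held 6 GC boxes. *Ulk1* had 5 GC boxes, of which 2 lie in the stretch printed, and *Pink1* had 2, of which 1 is printed. The *Tax1bp1* stretch held none of the 4 motifs, and the rest of its window held 1 GC box, starting 1 base after the start site. *Tax1bp1* has a second window, not printed, with ACGTG and TGACNNNGC once each, the latter the single antioxidant element in any window of these genes. *Tfeb* has 3 windows, with 4 GC boxes in all. In *Fundc1* no motif was found in the whole window. A match is a description of letters, and nothing was measured at these promoters.

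Depth was 8897256 to 23816042 counted reads per library in cohort 1 and 4792380 to 18213674 in cohort 2, and levels are given as CPM, reads scaled to a common library total. Each population carried its own defining markers. The summed level of 7 HSC markers (among them *Procr* and *Hlf*) was 1301 to 2318 CPM in cohort 2 HSCs and 89.8 to 170.0 CPM in CLPs and GMPs. In cohort 1 HSCs that sum was 1525 to 1545 CPM in O-WT, 857 to 2175 in O-NR and 757 to 2017 in O-NR-RC. The medians were 1535, 1359 and 882 CPM, so the marker level itself differed between the cohort 1 libraries. A set of 7 CLP markers (among them *Il7r* and *Dntt*) summed to 1669 to 4575 CPM in CLPs, and one of 7 GMP markers (among them *Mpo* and *Elane*) to 18237 to 23826 CPM in GMPs. One label field names the GMP samples as common myeloid progenitors, while their titles and these markers are those of GMPs. Of markers of other cells, 7 neutrophil markers summed to at most 184 CPM (in CLPs) and 8 B and plasma cell markers to at most 890.2 CPM in CLPs and 747 CPM in O-WT HSCs. In HSCs of cohort 1, 10 erythroid markers summed to at most 159 CPM and 6 megakaryocyte markers to at most 845 CPM. Their part in the results was not tested. The libraries also differed in the reads assigned to 1736 odorant and vomeronasal receptor genes, which blood cells are not known to use: 4281 to 14711 CPM in cohort 1 and 832 to 8004 CPM in cohort 2. The TMM scaling factor rose with that sum (r = 0.993 over 9 cohort 1 libraries and 0.947 over 24 cohort 2 libraries, as descriptions). TMM-scaled levels are divided by that factor, and those of most members fell with the sum, as given for cohort 1 below.

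In cohort 2 *Tax1bp1* reached 453 CPM, while *Calcoco2* stayed between 0.328 and 4.18 CPM in all 33 libraries. Levels per kilobase of exon used the union of all annotated exons, 2673 bases for *Pink1* and 9991 for *Tax1bp1*. Ranks between genes depend on that length. On this scale *Pink1* and *Tax1bp1* were the highest members in O-WT HSCs, at 25.0 ± 7.40 and 24.6 ± 7.24 CPM per kb (SD, n = 4). The pair lay within each other's spread. *Bnip3l* followed at 20.6 ± 4.91. In O-WT GMPs *Tax1bp1* led at 40.2 ± 3.91 CPM per kb, ahead of *Bnip3l* at 20.3 ± 0.855, and *Pink1*, below *Sqstm1*, was at 14.6 ± 2.12. In O-WT CLPs *Tax1bp1* led at 17.8 ± 5.74 CPM per kb and *Pink1* followed at 10.7 ± 3.71. *Tfeb* (1.59 ± 0.219 in O-WT HSCs) and *Calcoco2* (0.551 ± 0.189) were the 2 lowest members per kb in O-WT cells of all 3 populations. All levels below are TMM-scaled CPM, given in replicate order. Since these are bulk libraries, fewer cells with a transcript and less transcript per cell cannot be told apart.

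**Figure D1:**
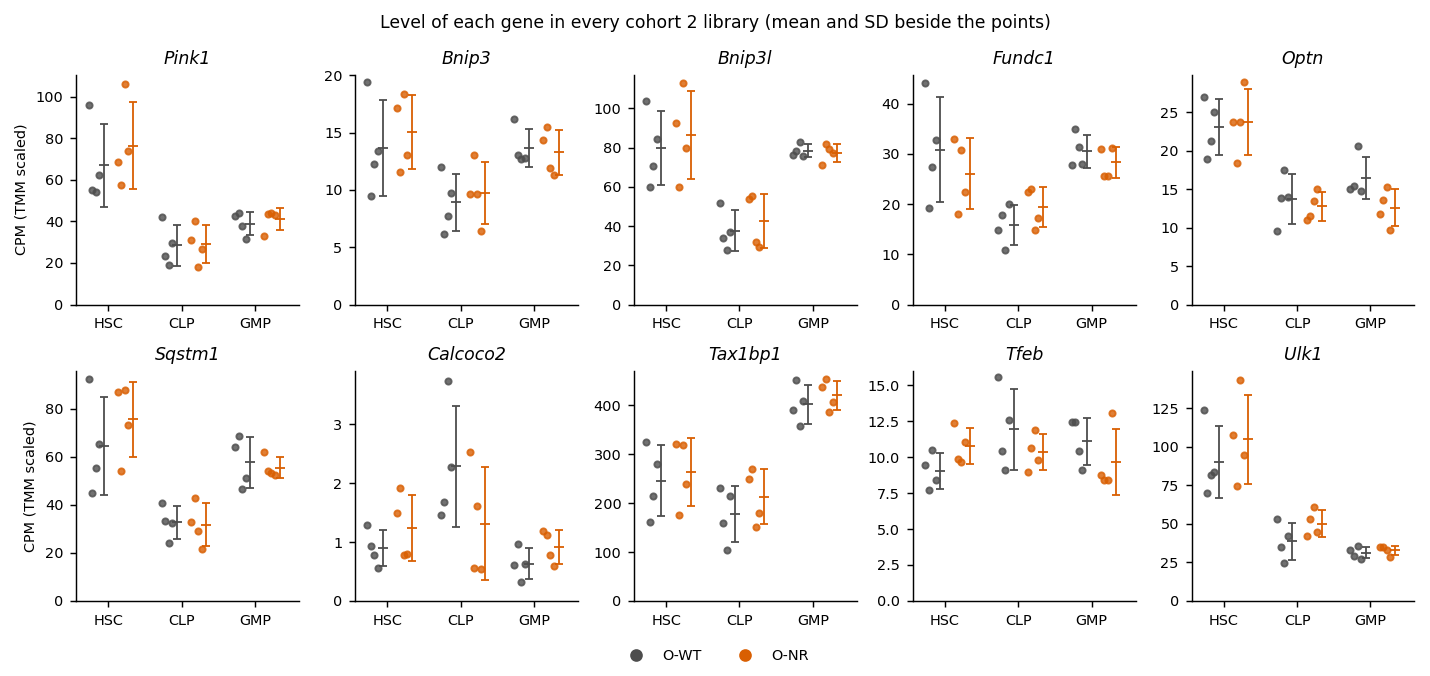
CPM (TMM scaled within cohort 2) of each of the 10 genes in the 24 cohort 2 libraries, by cell type; points are libraries, bars beside them the mean and SD of 4 libraries, grey for O-WT and orange for O-NR. HSC points lie above CLP points for *Pink1*, *Bnip3l*, *Optn*, *Sqstm1* and *Ulk1* in both treatments. GMP points lie highest for *Tax1bp1*, and O-WT and O-NR points overlap in every panel. At most 2.32% of all genes tested, the share for CLPs, did not overlap between O-WT and O-NR.

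*Pink1* (chromosome 4:138313409-138326307, minus strand, mm10) was higher in HSCs than in either progenitor. O-WT HSCs had 96.1, 54.9, 54.2 and 62.5 CPM, O-WT CLPs 41.9, 23.6, 19.1 and 29.8, and O-WT GMPs 42.5, 44.2, 37.8 and 31.5. Every HSC library stood above every CLP and GMP library, while the ranges of CLPs and GMPs overlapped. The log2 difference (edgeR quasi-likelihood test on counts, Benjamini-Hochberg over all genes tested) was 1.20 (SE 0.19, adjusted p = 6.82e-06) for HSC against CLP, a 2.30-fold higher level. It was 0.77 (SE 0.18, adjusted p = 0.000931) for HSC against GMP. Both held with NR. O-NR HSCs had 68.5, 57.5, 106 and 73.8 CPM against 31.2, 40.0, 18.1 and 26.6 in O-NR CLPs and 33.1, 43.7, 44.3 and 43.2 in O-NR GMPs. The log2 differences were 1.32 (SE 0.17, adjusted p = 5.25e-07) and 0.84 (SE 0.17, adjusted p = 0.00015). CLP against GMP was -0.43 (SE 0.18, adjusted p = 0.0441) in O-WT and -0.48 (SE 0.17, adjusted p = 0.0229) in O-NR with TMM scaling. Scaled instead on abundant genes (at least 50 CPM in every library) it was 0.20 and -0.095, neither called, so the direction in O-WT turned with the scaling. Leaving out 1 library, the TMM call in O-WT was lost in 9 of 12 fits, all but those without HSC replicate 1, CLP replicate 1 or GMP replicate 4, and was smallest (-0.26) without CLP replicate 2. The O-NR call was lost without CLP replicate 1, 3 or 4 or GMP replicate 2 or 3, and was smallest (-0.31) without CLP replicate 3.

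Of the outer membrane receptors, *Bnip3l* (chromosome 14:66985239-67008877, minus strand) was the most abundant per kb, and it was low in CLPs. Its levels were 104, 59.9, 70.6 and 84.6 CPM in O-WT HSCs, 52.0, 34.2, 27.9 and 37.0 in O-WT CLPs and 76.4, 78.1, 83.1 and 75.8 in O-WT GMPs. The CLP libraries lay below all HSC and GMP libraries. With TMM scaling the GMP libraries were less spread than the HSC libraries (SD 3.30 against 18.9 CPM). By library total alone the SDs were 4.42 and 2.04 CPM. The ranges were then 61.6 to 71.8 CPM in O-WT GMPs and 83.1 to 87.4 CPM in O-WT HSCs, without overlap. HSCs exceeded CLPs by 1.05 (SE 0.16, adjusted p = 8.18e-06) in O-WT and 0.93 (SE 0.16, adjusted p = 4.21e-05) in O-NR on the log2 scale. Against GMPs, CLPs gave -1.03 (SE 0.16, adjusted p = 1.15e-05) and -0.84 (SE 0.16, adjusted p = 0.000176). HSC against GMP gave 0.02 (SE 0.16, adjusted p = 0.923) in O-WT, with a 95% interval of -0.31 to 0.35, and 0.095 (SE 0.16, adjusted p = 0.677) in O-NR. Scaled on abundant genes the 2 values were 0.49 and 0.48, both called.

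*Fundc1* (chromosome X:17556564-17572325, minus strand), whose protein binds ATG8 proteins under hypoxia, was higher in HSCs than in CLPs in O-WT, and the O-NR difference missed the threshold. O-WT HSCs had 44.2, 19.3, 27.3 and 32.8 CPM, O-WT CLPs 14.8, 17.9, 10.8 and 20.1 and O-WT GMPs 27.9, 34.9, 31.4 and 27.9, and the lowest HSC library, replicate 2, lay inside the CLP range. HSC against CLP was 0.92 (SE 0.19, adjusted p = 0.000296) in O-WT and 0.34 (SE 0.17, adjusted p = 0.108) in O-NR. The O-NR HSCs had 32.9, 17.99, 30.9 and 22.5 CPM and CLPs 22.5, 23.1, 14.8 and 17.3. The test of that change, the NR effect in HSCs against that in CLPs, gave -0.53 (SE 0.31, adjusted p = 1). Without HSC replicate 2 the O-NR difference from CLPs was 0.42 and passed the threshold. CLP against GMP was -0.92 (SE 0.19, adjusted p = 0.00025) in O-WT and -0.52 (SE 0.17, adjusted p = 0.0128) in O-NR. With the abundant-gene scaling these were -0.28 and -0.12, neither called. HSC against GMP was 0.0014 (SE 0.18, adjusted p = 0.995) in O-WT, with a 95% interval of -0.37 to 0.37, and -0.18 (SE 0.16, adjusted p = 0.405) in O-NR. Scaled on abundant genes the O-WT value was 0.46 and called.

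*Bnip3* (chromosome 7:138890836-138909519, minus strand), a hypoxia-inducible receptor, was the lowest receptor per kb, and each of its calls was lost in some fits that left 1 library out. Its levels ran from 6.18 to 19.4 CPM over the 24 libraries, and the HSC and CLP ranges overlapped in both treatments. HSC against CLP was 0.58 (SE 0.22, adjusted p = 0.0456) in O-WT and 0.55 (SE 0.21, adjusted p = 0.0332) in O-NR. HSC against GMP was -0.014 (SE 0.21, adjusted p = 0.96) and 0.12 (SE 0.20, adjusted p = 0.672). CLP against GMP was -0.59 (SE 0.22, adjusted p = 0.0231) and -0.43 (SE 0.21, adjusted p = 0.0802). The HSC against CLP call in O-WT was lost in 10 of the 12 fits that left 1 library out (all but those without HSC replicate 2 or CLP replicate 1), which ranged from 0.39 to 0.70. In O-NR it was lost without HSC replicate 1 or 3 or CLP replicate 1 or 4, with the lowest value, 0.36, for the last. The CLP against GMP call in O-WT was lost without HSC replicate 3, CLP replicate 2 or 3 or GMP replicate 1, with the smallest value, -0.36, without CLP replicate 2, and the O-NR value was called without CLP replicate 2 (-0.52). With abundant genes as the scale, HSC against CLP in O-WT was 0.40, not called, and CLP against GMP was 0.051, so the direction of the latter turned. An antisense transcript, Gm45507, shares 504 exon bases with *Bnip3*, and the strand setting of the counting is not stated, so reads from the pair cannot be told apart.

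Among the ubiquitin-binding adaptors, *Tax1bp1* (chromosome 6:52713729-52766780, plus strand), which also dampens inflammatory signalling, was highest in GMPs. Its levels were 326, 161, 214 and 280.2 CPM in O-WT HSCs, 232, 160.1, 105 and 214 in O-WT CLPs and 389, 451, 358 and 408 in O-WT GMPs. All GMP libraries lay above all others. HSC against GMP was -0.72 (SE 0.21, adjusted p = 0.00501) in O-WT and -0.74 (SE 0.16, adjusted p = 0.00031) in O-NR, a level in HSCs of 0.606 and 0.599 times that of GMPs. The difference of CLP against GMP was -1.17 (SE 0.21, adjusted p = 4.98e-05) and -0.96 (SE 0.16, adjusted p = 2.28e-05). On the abundant-gene scaling, the 4 differences shrank to between -0.56 and -0.26 and stayed called. The O-WT call of HSC against GMP was lost without HSC replicate 3 (-0.62). HSC against CLP was 0.45 (SE 0.21, adjusted p = 0.105) in O-WT and 0.23 (SE 0.16, adjusted p = 0.259) in O-NR, with overlapping ranges. The O-WT value passed without HSC replicate 2 (0.54) and when scaled on abundant genes (0.29).

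*Optn* (chromosome 2:5020642-5064051, minus strand), a main adaptor of PINK1-dependent mitophagy, was higher in HSCs than in CLPs and GMPs. O-WT HSCs had 27.1, 19.0, 21.2 and 25.0 CPM, O-WT CLPs 9.53, 13.8, 17.5 and 14.0 and O-WT GMPs 15.0, 15.4, 20.6 and 14.8. O-NR HSCs had 23.8, 18.4, 23.8 and 28.9 CPM, O-NR CLPs 10.998, 11.5, 13.5 and 15.1 and O-NR GMPs 11.8, 13.6, 15.2 and 9.65. Every O-NR HSC library stood above every CLP and GMP library, and in O-WT only GMP replicate 3 reached into the HSC range. HSC against CLP was 0.71 (SE 0.20, adjusted p = 0.00683) in O-WT and 0.81 (SE 0.19, adjusted p = 0.00124) in O-NR. HSC against GMP was 0.49 (SE 0.20, adjusted p = 0.0419) and 0.86 (SE 0.19, adjusted p = 0.000417). The O-WT call against GMPs was lost without HSC replicate 1 or 4 or GMP replicate 1, 2 or 4 (0.45 to 0.47), and scaled on abundant genes it was 0.97 and called. Against CLPs the O-WT call was lost without CLP replicate 1 (0.52) and when scaled on abundant genes, which gave 0.47 (SE 0.28, adjusted p = 0.239). CLP against GMP was -0.22 (SE 0.20, adjusted p = 0.338) in O-WT and 0.054 (SE 0.19, adjusted p = 0.825) in O-NR.

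*Sqstm1* (chromosome 11:50199366-50210827, minus strand), the gene of p62, was lowest in CLPs. Its levels were 92.1, 45.0, 55.4 and 65.3 CPM in O-WT HSCs, 40.9, 33.1, 24.3 and 32.6 in O-WT CLPs and 64.0, 68.6, 46.5 and 51.2 in O-WT GMPs. CLPs stood below all HSC and GMP libraries. HSC against CLP was 0.94 (SE 0.18, adjusted p = 0.000115) in O-WT and 1.18 (SE 0.15, adjusted p = 4.48e-07) in O-NR. CLP against GMP was -0.79 (SE 0.18, adjusted p = 0.000625) and -0.79 (SE 0.15, adjusted p = 0.000143), the former not called when scaled on abundant genes. HSC against GMP was 0.15 (SE 0.17, adjusted p = 0.488) in O-WT and 0.39 (SE 0.15, adjusted p = 0.0332) in O-NR. The O-NR call was lost without HSC replicate 1 or 3 or GMP replicate 2, 3 or 4 (0.34 to 0.37), and scaled on abundant genes HSC against GMP was 0.62 and 0.78, both called. The opposite-strand gene *Mrnip* shares 580 exon bases with *Sqstm1*, so part of its reads may not be its own.

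*Calcoco2* (chromosome 11:96099326-96111964, minus strand) gave few reads, at 1.29, 0.940, 0.783 and 0.561 CPM in O-WT HSCs, 1.46, 1.69, 3.74 and 2.27 in O-WT CLPs and 0.614, 0.974, 0.328 and 0.629 in O-WT GMPs. Its CLP libraries lay above all HSC and GMP libraries in O-WT and overlapped with them in O-NR. It was not tested in cohort 2 because too few libraries passed 3 CPM.

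*Ulk1* (chromosome 5:110784488-110810097, minus strand) showed the largest difference between HSCs and GMPs of the members tested. O-WT HSCs had 124, 70.1, 81.7 and 84.0 CPM, O-WT CLPs 53.3, 34.8, 24.7 and 41.9 and O-WT GMPs 33.2, 29.3, 35.4 and 27.5. All HSC libraries lay above all CLP libraries, and the CLP and GMP ranges overlapped. HSCs exceeded GMPs by 1.52 (SE 0.17, adjusted p = 3.33e-08) in O-WT and 1.62 (SE 0.15, adjusted p = 1.51e-09) in O-NR, 2.86-fold and 3.07-fold. They exceeded CLPs by 1.20 (SE 0.17, adjusted p = 2.63e-06) and 0.97 (SE 0.15, adjusted p = 7.92e-06). O-NR CLPs had 41.9, 53.2, 60.8 and 45.0 CPM against 34.9, 34.9, 33.0 and 28.3 in O-NR GMPs. For CLP against GMP it was 0.32 (SE 0.17, adjusted p = 0.107) in O-WT and 0.65 (SE 0.15, adjusted p = 0.00131) in O-NR. Under the other scaling, on abundant genes, they were 0.94 and 1.07, both called. The O-WT value also passed without HSC replicate 2 (0.38) or CLP replicate 3 (0.50).

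*Tfeb* (chromosome 17:47737030-47792419, plus strand) passed the threshold in none of the 6 comparisons of cell types, the one member tested of which that was true. Its levels ran from 7.69 to 15.6 CPM over the 24 libraries, at 9.03 ± 1.24 CPM in O-WT HSCs, 11.9 ± 2.83 CPM in O-WT CLPs and 11.1 ± 1.65 CPM in O-WT GMPs (mean ± SD, n = 4 each). HSC against CLP was -0.41 (SE 0.22, adjusted p = 0.162) in O-WT, with a 95% interval of -0.85 to 0.035, and -0.018 (SE 0.22, adjusted p = 0.955) in O-NR. HSC against GMP gave -0.29 (SE 0.21, adjusted p = 0.275) and 0.11 (SE 0.22, adjusted p = 0.714). CLP against GMP gave 0.12 (SE 0.21, adjusted p = 0.616) and 0.13 (SE 0.22, adjusted p = 0.62). Scaled on abundant genes, CLP against GMP in O-WT was 0.77 and called, and HSC against GMP turned to 0.22.

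**Figure D2:**
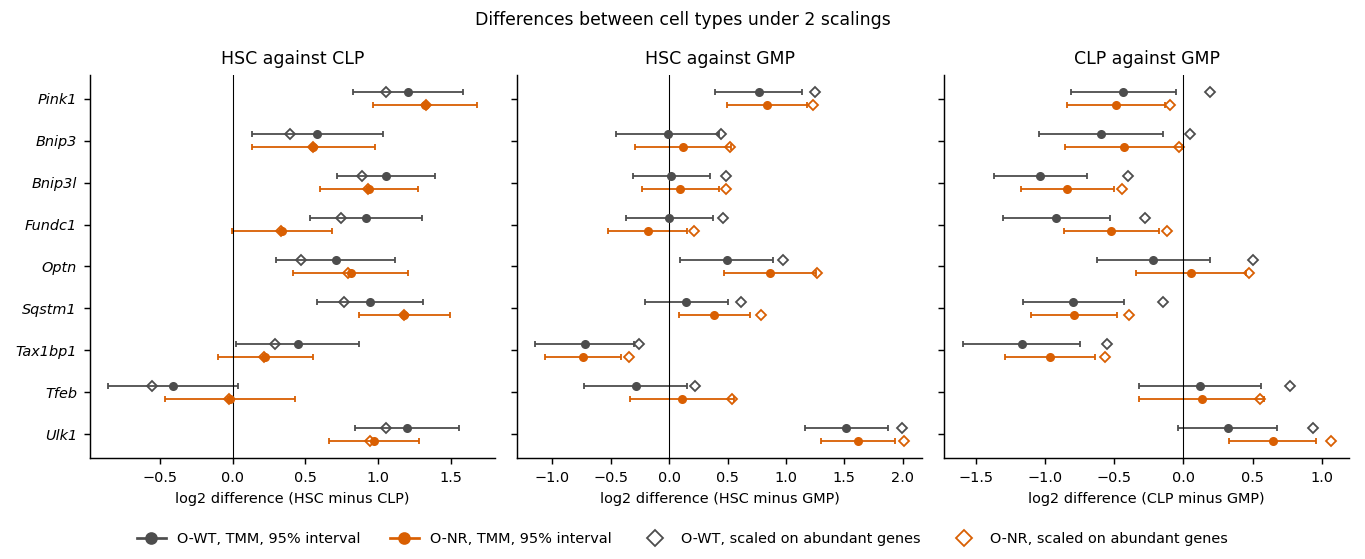
Log2 differences between cell types for the 9 members tested in cohort 2, in O-WT (grey) and O-NR (orange); filled points are TMM-scaled edgeR fits with 95% intervals, open diamonds the same comparison scaled on genes with at least 50 CPM in every library. In the HSC panels *Pink1* and *Ulk1* lie to the right of 0 under both scalings, *Tax1bp1* lies to the left of 0 against GMPs, and in every comparison with GMPs the open diamonds stand to the right of the filled points.

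Over the 9 members tested, 7 were called higher in HSCs than in CLPs in O-WT, against 19.9% of all 20044 genes tested that were higher in HSCs (10.4% were lower, 30.3% in either direction). The median of the members was 0.92 against -0.08 for all genes. In O-NR 6 were higher and 0 lower, against 22.6% of 18080 genes higher (18.3% lower, 40.9% in either direction). HSC against GMP called 3 members higher and 1 lower in O-WT, 4 of 9 where 44.2% of all genes were called (21.5% higher, 22.6% lower). In O-NR 4 were higher and 1 lower, where 46.4% were called (22% higher, 24.4% lower), so the share of members was close to that of all genes. CLP against GMP called 6 members lower and 0 higher in O-WT, where 28.6% of all genes were lower (60.8% in either direction, 32.2% higher). In O-NR 5 were lower and 1 higher, where 26.1% were lower (50.1% in either direction, 23.9% higher). The libraries of O-WT HSCs and CLPs did not overlap in 6 of the 10 members, 5 higher in HSCs and *Calcoco2*, which was not among the genes tested, lower; 24.1% of all genes tested did not overlap. In O-NR it was 5, against 29.3%. For HSC against GMP it was 3 in O-WT and 4 in O-NR, against 39.4% and 43.7%. For CLP against GMP it was 6 and 5, against 46.2% and 41.6%.

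These counts moved with the scaling. With TMM the median log2 difference of all genes was 0.31 for HSC against GMP and 0.28 for CLP against GMP in O-WT. Scaled on the 1957 genes with at least 50 CPM in every library it was 0.81 and 0.95. The share of calls that were higher in the first-named type went from 48.8% to 74.1% and from 52.9% to 84.1%. For HSC against CLP it went from 65.7% to 53.4%. In O-NR the same shares went from 47.5% to 71.2%, from 47.8% to 77.8% and from 55.2% to 57.9%. Under that scaling 6 members were higher in HSCs than in CLPs in O-WT, and 6 were higher and 1 lower than in GMPs. CLP against GMP called 2 higher (*Tfeb* and *Ulk1*) and 2 lower (*Bnip3l* and *Tax1bp1*). Of all 20044 genes, the same scaling called 29.2%, 53.9% and 70.2% in these comparisons. The genes higher and lower were 3122 and 2723, 8000 and 2797, and 11828 and 2237. In O-NR that scaling called 6 members higher in HSCs than in CLPs, and 6 higher and 1 lower than in GMPs. For CLP against GMP it called 1 higher and 3 lower. Of all 18080 genes 39.5%, 54% and 59.8% were called, with 4134 higher and 3009 lower, 6943 and 2813, and 8406 and 2403. Directions and calls that held under TMM and the abundant-gene scaling, in both treatments, were those of *Pink1*, *Bnip3l*, *Sqstm1* and *Ulk1* in HSC against CLP, *Pink1*, *Optn* and *Ulk1* in HSC against GMP, *Tax1bp1* in both comparisons with GMPs, and *Bnip3l* in CLP against GMP.

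The other genes of the pathway, 90 in 7 lists, were also more often called higher than lower in HSCs against CLPs. In O-WT 40 of the 90 were higher in HSCs than in CLPs and 1 was lower, where 19.9% and 10.4% of all genes were. Scaled on abundant genes 27 were higher and 7 lower, where 29.2% of all genes were called, 53.4% of them higher. With TMM the median was 0.40, against -0.08 for all genes. The smallest p-values were those of *Tbkbp1*, an adaptor of the kinase TBK1 (2.91, SE 0.20, adjusted p = 2.18e-12), and *Tfec*, a relative of TFEB (2.59, SE 0.21, adjusted p = 9.5e-11), then *Gabarapl1*, an ATG8 protein (2.21, SE 0.19, adjusted p = 2.31e-10), and *Wdfy3*, an autophagy scaffold (1.97, SE 0.17, adjusted p = 3.42e-10). Calls higher in HSCs were spread over the 7 lists. The TFEB family and its regulators held 10 of 16, and the initiation complex and its kinases 8 of 16. ATG8 proteins and their conjugation held 7 of 15, and the other cargo adaptors and their kinase 6 of 8. The class III PI3K complex held 4 of 9, other membrane receptors 3 of 10 and the PINK1-Parkin arm 2 of 16. Scaled on abundant genes these counts were, in the same order, 6, 3, 4, 6, 2, 4 and 2. HSC against GMP called 17 higher and 28 lower, where 21.5% and 22.6% of all genes were (median -0.14, against 0.31 for all genes). Scaled on abundant genes it called 43 higher and 14 lower, where 53.9% of all genes were called, 74.1% of them higher. The balance of the list thus turned with the scaling, while that of all genes also moved toward higher. The list's median was below that of all genes under both scalings (0.34 against 0.81 on abundant genes). *Tbkbp1* (2.64, SE 0.19, adjusted p = 5.36e-12), *Gabarapl1* (2.05, SE 0.19, adjusted p = 5.2e-10) and *Calcoco1*, an adaptor related to NDP52 (1.34, SE 0.15, adjusted p = 3.65e-08), were higher under both scalings, and *Phb2*, a mitochondrial receptor of the inner membrane (-1.49, SE 0.19, adjusted p = 1.72e-07), was lower under both.

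CLP against GMP called 4 of the 90 higher and 55 lower in O-WT, where 32.2% and 28.6% of all genes were. The median was -0.54, against 0.28 for all genes. Scaled on abundant genes it called 30 higher and 17 lower, where 70.2% of all genes were called, 84.1% of them higher. The median was then 0.12, against 0.95 for all genes. *Tfec* (-3.51, SE 0.21, adjusted p = 5.37e-13), the mitofusin gene *Mfn2* (-1.62, SE 0.16, adjusted p = 7.58e-09), *Lamtor2*, a part of the lysosomal Ragulator complex (-1.94, SE 0.22, adjusted p = 5.62e-08), and *Atg3*, an enzyme of ATG8 conjugation (-1.41, SE 0.16, adjusted p = 6.32e-08), were lower under both scalings. In O-NR the TMM counts were 39 higher and 3 lower for HSC against CLP, where 22.6% of all genes were higher and 18.3% lower. They were 17 and 29 for HSC against GMP, where 22% and 24.4% were. For CLP against GMP they were 6 and 51, where 23.9% and 26.1% were. Scaled on abundant genes the counts were 45 and 5, 44 and 15, and 19 and 23. Of all 18080 genes, that scaling called 4134 higher and 3009 lower, 6943 and 2813, and 8406 and 2403. The balance of both comparisons with GMPs thus moved with the scaling in O-NR as in O-WT, for the list and for all genes.

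Over the 24 cohort 2 libraries the genes most like each member, by Pearson correlation of log2 CPM over 22573 genes, were *Wbp1l* and *Mkrn1* for *Pink1* (r = 0.961 and 0.959), *Itgav* and *Rsrp1* for *Bnip3* (0.937 and 0.923), then *Zfp971* and *Nop53* for *Bnip3l* (0.975 and 0.968), and *Bod1l* and *Rpl26* for *Fundc1* (0.954 and 0.952). For the adaptors they were *Stk38l* and *Pcdh7* for *Optn* (0.883 and 0.882), *Triobp* and *Abhd16a* for *Sqstm1* (0.966 and 0.962), and the ribosomal protein genes *Rpl4* and *Rpl7a* for *Tax1bp1* (0.989 and 0.983). *Ulk1* was closest to *Snord17* and *Zfp945* (0.980 and 0.977), and *Tfeb* to *Rhbdf2* and *Mavs* (0.651 and 0.607), the weakest of the set. Between members the 36 correlations ran from -0.29 (*Optn* and *Tfeb*) to 0.932 (*Bnip3l* and *Sqstm1*). These libraries share cell type, depth and receptor background, so the values are descriptions.

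With NR, 0 of the 9 members passed the threshold used for it (unadjusted p below 0.01) in HSCs, CLPs or GMPs. Of all genes, 0.777% of 17364 genes, 0.412% of 19909 genes and 0.986% of 13486 genes passed it. O-NR and O-WT libraries overlapped for every member in all 3 cell types. Few genes of any kind stood apart by this measure: 1.21% of those tested for HSCs, 2.32% for CLPs and 2.1% for GMPs. Overlap therefore did not set the members apart from other genes. In these edgeR fits 0 of all genes tested passed an adjusted p of 0.05 in any cell type, and 705, 640 and 651 genes had an unadjusted p below 0.05. With a replicate block 10 genes passed in HSCs and 3 in CLPs, with the receptor sum as a covariate 23 in HSCs, with RUVr, which removes 1 factor estimated from residuals, 21 in HSCs, and scaled on abundant genes 1 in HSCs. In HSCs the smallest p was that of *Fundc1*, with 44.2, 19.3, 27.3 and 32.8 CPM in O-WT and 32.9, 17.99, 30.9 and 22.5 in O-NR, and 2 of the 4 O-NR libraries lay under the O-WT median of 30.04 CPM. The log2 difference was -0.31 (SE 0.15, 95% interval -0.62 to -0.0019, adjusted p = 0.995). Scaled on abundant genes it was -0.37 (adjusted p = 0.827), and with the receptor sum as a covariate -0.38 (adjusted p = 0.293), both past the unadjusted threshold, as were the RUVr value, -0.30 (adjusted p = 0.277), and the TMM value without O-WT replicate 2 (-0.42). Of all genes, 1.11% passed when scaled on abundant genes, 2.26% with the covariate and 3.58% with RUVr. Second was *Sqstm1* at 0.16 (SE 0.12, 95% interval -0.089 to 0.41, adjusted p = 0.995), and the other 7 members lay between -0.035 and 0.17.

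In CLPs the smallest p values were those of *Ulk1*, 0.31 (SE 0.19, 95% interval -0.084 to 0.70, adjusted p = 1), with 53.3, 34.8, 24.7 and 41.9 CPM in O-WT and 41.9, 53.2, 60.8 and 45.0 in O-NR. *Tfeb* was next, -0.28 (SE 0.26, 95% interval -0.81 to 0.25, adjusted p = 1), and the rest lay between -0.19 and 0.21, with standard errors of 0.19 to 0.30. In GMPs *Optn* had 15.0, 15.4, 20.6 and 14.8 CPM in O-WT and 11.8, 13.6, 15.2 and 9.65 in O-NR, and the groups overlapped. The log2 difference was -0.38 (SE 0.17, 95% interval -0.74 to -0.029, adjusted p = 0.997). The other 8 GMP values lay between -0.21 and 0.07, *Tfeb* next by p at -0.21 (SE 0.18, 95% interval -0.59 to 0.17, adjusted p = 0.997). The 95% intervals of *Pink1*, which bound an undetected change, were -0.16 to 0.40 in HSCs, -0.49 to 0.37 in CLPs and -0.17 to 0.32 in GMPs. The difference of the NR effect between cell types was called for 0 of the 9 members, against 0.403% of 22573 genes for HSC against CLP, 0.146% for HSC against GMP and 0.403% for CLP against GMP.

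The 90 pathway genes gave 0 calls with NR in HSCs and GMPs and 1 in CLPs, *Prkag1*, a subunit of the energy sensor AMPK (0.62, SE 0.21, adjusted p = 1), where 0.412% of all genes passed. Scaled on abundant genes *Prkag1* was 0.51 and not called, and 1 other gene was called, lower in HSCs: *Atg16l1*, a part of the ATG8 conjugation machinery (-0.27, SE 0.082, adjusted p = 0.783), where 1.11% of all genes passed. The smallest p in HSCs was that of *Tsc2*, an inhibitor of mTOR signalling (0.25, SE 0.12, adjusted p = 0.995), and in GMPs that of *Bcl2l1*, an inhibitor of cell death (0.51, SE 0.22, adjusted p = 0.997).

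**Figure D3:**
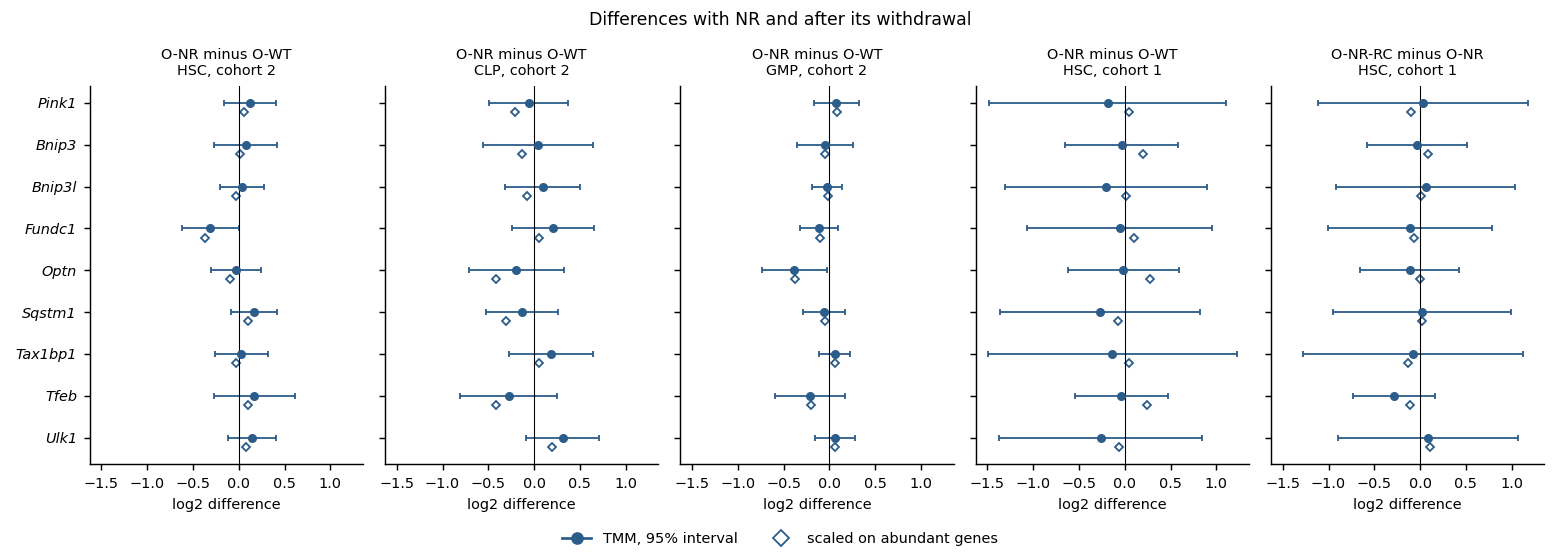
Log2 differences with NR (first 4 panels) and after its withdrawal (last panel) for the 9 members tested in every panel; filled points are TMM-scaled edgeR fits with 95% intervals, open diamonds the same comparison scaled on abundant genes. *Fundc1* in cohort 2 HSCs and *Optn* in GMPs are the 2 whose intervals do not reach across 0, and the intervals of cohort 1 are wider than those of cohort 2 HSCs for most members.

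Cohort 1, in which NR was withdrawn, gave 0 calls among 10 members in each of its 3 comparisons, where 0.048% (O-NR against O-WT), 0.036% (O-NR-RC against O-NR) and 0.078% (O-NR-RC against O-WT) of 33350 genes passed. With RUVr, NR against O-WT called 2 members lower, *Sqstm1* (-0.35, SE 0.082, adjusted p = 0.0125) and *Ulk1* (-0.33, SE 0.085, adjusted p = 0.0180), where 11.2% of all genes passed, 375 higher and 3362 lower. For O-NR-RC against O-WT, RUVr called 4 lower: *Sqstm1* (-0.41), *Tax1bp1* (-0.46), *Ulk1* (-0.30) and *Bnip3l* (-0.33), where 14.1% of all genes passed, 559 higher and 4129 lower. *Pink1* had 102 and 51.2 CPM in O-WT, 45.4, 44.1, 97.4 and 82.4 in O-NR and 139.8, 31.3 and 35.5 in O-NR-RC. *Ulk1* had 113 and 81.3 CPM in O-WT, 56.2, 49.2, 108 and 111 in O-NR and 148, 55.5 and 54.5 in O-NR-RC. *Tax1bp1* had 271 and 246 CPM in O-WT, 153, 149.8, 297 and 342 in O-NR and 426, 115 and 128 in O-NR-RC. Within each treated group some libraries were high and others low, and the 4 lowest were the same libraries for all 3 genes: O-NR replicates 1 and 2 and O-NR-RC replicates 2 and 3. *Fundc1* ran from 13.6 to 39.0 CPM, *Bnip3l* from 43.9 to 142.7, *Sqstm1* from 40.2 to 124.0, *Optn* from 24.9 to 38.6, *Bnip3* from 8.62 to 14.8, *Tfeb* from 11.4 to 19.2 and *Calcoco2* from 1.88 to 4.18.

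Those 4 libraries had 13739 to 14711 CPM on the receptor genes and the other 5 had 4281 to 8731 CPM. Over the 9 libraries the log2 CPM of 9 of 9 members (without *Calcoco2*) fell with the receptor sum, with a median r of -0.98. *Calcoco2* did not (r = 0.24). TMM-scaled CPM is divided by the TMM factor, which itself rose with the receptor sum (r = 0.993). Part of such a fall is therefore arithmetic, for any gene with a steady share of the reads. With CPM by library total alone the median was -0.90 and 6 of 9 fell, while *Bnip3*, *Optn* and *Tfeb* rose (r = 0.54, 0.82 and 0.71). In cohort 2 HSCs the median r was -0.93 over 8 libraries (9 of 9 negative), and -0.40 by library total alone (7 of 9 negative, with *Optn* and *Tfeb* at 0.58 and 0.72). In CLPs the median was -0.76 with 8 of 9 negative, and *Optn* rose with the receptor sum (r = 0.74). By library total alone the CLP median was -0.04, with 7 of 9 negative. In GMPs 9 of 9 were negative with a median of -0.26, and by library total alone 4 of 9, with a median of 0.01. Whether the receptor signal has a part in the spread of the members was not tested beyond these values and the fit with it as a covariate.

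**Figure D4:**
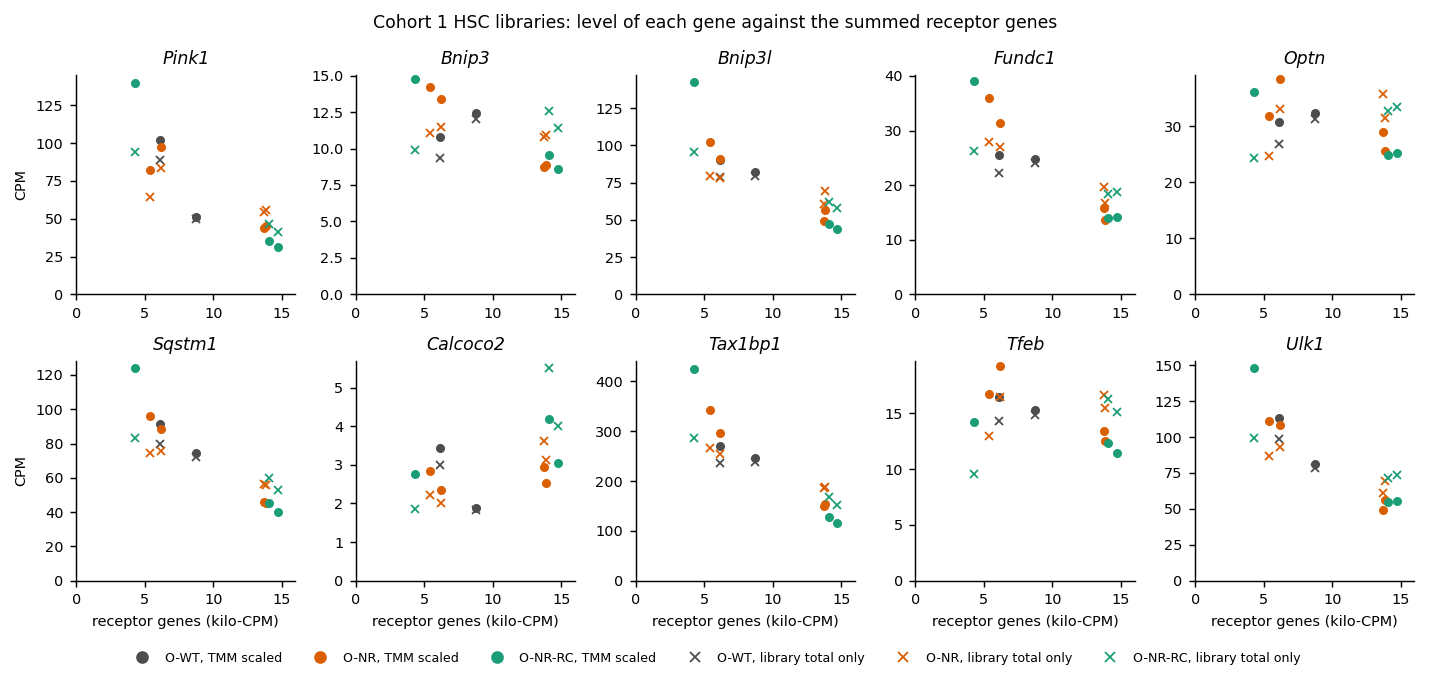
Level of each gene in the 9 cohort 1 HSC libraries against the summed receptor genes, in kilo-CPM; circles are TMM-scaled CPM and crosses CPM by library total alone, coloured by group. The 4 libraries near 14 on the x axis, from both treated groups, hold the 4 lowest circles of every gene but *Calcoco2*, while for *Pink1* the cross of O-WT replicate 2 lies among theirs, and for *Bnip3*, *Optn*, *Calcoco2* and *Tfeb* the lowest cross belongs to another library.

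By p the first 2 members were *Sqstm1*, -0.27 (SE 0.51, 95% interval -1.36 to 0.82, adjusted p = 1), and *Ulk1*, -0.26 (SE 0.51, 95% interval -1.37 to 0.85, adjusted p = 1), for NR against O-WT. Leaving out 1 library, *Sqstm1* ranged from -0.47 (without O-NR replicate 4) to -0.11 (without O-NR replicate 1) and *Ulk1* from -0.49 (without O-WT replicate 2) to -0.0011 (without O-WT replicate 1). For withdrawal against NR they were *Tfeb*, -0.29 (SE 0.21, 95% interval -0.74 to 0.17, adjusted p = 1), and *Calcoco2*, 0.31 (SE 0.28, 95% interval -0.30 to 0.91, adjusted p = 1), with the other 8 between -0.11 and 0.08. For O-NR-RC against O-WT they were *Tfeb*, -0.33 (SE 0.25, 95% interval -0.86 to 0.21, adjusted p = 1), and *Calcoco2*, 0.31 (SE 0.34, 95% interval -0.43 to 1.04, adjusted p = 1). Each pair of these 3 comparisons shares 1 group of libraries. The interval of *Pink1* for O-NR-RC against O-NR was -1.11 to 1.18, which holds changes of 2-fold in either direction. With both cohorts fitted together (6 O-WT and 8 O-NR HSC libraries, cohort as a term) 0 of 10 members passed, against 0.0886% of 31596 genes, and *Fundc1* was -0.19 (SE 0.21, 95% interval -0.62 to 0.24, adjusted p = 1). The NR effect in HSCs differed between cohorts for 0 of 10 members, against 0.228% of 31596 genes, and for *Fundc1* it was -0.31 in cohort 2 and -0.06 in cohort 1 in their own fits, with a difference in the joint fit of -0.20 (SE 0.44, 95% interval -1.09 to 0.69, adjusted p = 0.998).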

How the data were processed

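RNA was measured in 33 libraries of sorted mouse bone marrow cells. RNA was purified with TRIzol and Direct-zol columns, and libraries were made with the SMARTer Stranded Total RNA-Seq v2 Pico kit. The authors trimmed reads with Trim Galore and cutadapt, aligned them with STAR to mm10, and used featureCounts with Gencode M22 to count reads in genes; the strand setting is not given in the sources used here. The deposited values are raw counts per gene, 1 table per library, and depth was 4792380 to 23816042 counted reads per library.

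Counts were tested with edgeR 4.0.16 (quasi-likelihood, TMM, keeping genes above 3 CPM in a number of libraries no smaller than the smallest group fitted; R 4.3.3), with p-values adjusted by Benjamini-Hochberg over all genes tested. Cell types were compared in 1 fit of 12 libraries per treatment and called at an adjusted p below 0.05. NR, withdrawal and interactions were called at an unadjusted p below 0.01. Log2 CPM used a prior count of 2, and CPM per kb the union length of all exons of a gene in Gencode M21 on mm10. The scripts were tested on simulated data. In cohort 2 the names of the deposited tables give the same-numbered libraries of 1 treatment a common number across cell types, which may mark a shared mouse; the labels do not say so. Deviations from group means correlated at 0.13 to 0.37 in the 4 same-numbered pairs of O-WT HSCs and CLPs, so a fit with the replicate number as a block was run. The members and lists were chosen with earlier results of these data known. Members were named in every comparison of cell types; for NR and withdrawal those with p below 0.05, or else the 2 with the smallest p, were named, along with up to 4 list genes by p in each comparison and the 2 most like genes. Alternatives were DESeq2 1.42.0 and its size factors, no filter, no scaling, 1 factor of unwanted variation computed from residuals (RUVr), a replicate block, each library left out, and, chosen after seeing the data, scaling on abundant genes and the receptor sum as a covariate.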

Additional observations from a re-analysis of the deposited data

Results flagged for a closer look

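In 5 of 70 groups of 4 libraries, 1 library stood apart from the others of its group by Dixon's criterion at the 95% level, where chance gives about 1 in 20 groups, or 3.5 of 70. All 5 were GMP libraries. For *Pink1*, the kinase that marks damaged mitochondria, O-NR replicate 1 was low, at 33.1 CPM against 43.2 to 44.3 CPM in the others. O-NR replicate 1 was also apart for *Sqstm1*, at 62.1 CPM against 52.4 to 54.0 CPM. In O-WT GMPs, *Bnip3* was 16.2 CPM in replicate 1 against 12.7 to 13.0 CPM, and *Optn* was 20.6 CPM in replicate 3 against 14.8 to 15.4 CPM. *Tfeb* was 13.1 CPM in O-NR replicate 4 against 8.38 to 8.74 CPM. The *Optn* library is the one that overlapped with HSCs in O-WT.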

How the results depend on the processing

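For 76 log2 differences of members, 415 refits by other methods kept direction and side of the threshold, 33 lost a call, 22 gained one and 34 changed sign; leaving out 1 library, the numbers were 882, 44, 6 and 18. The causes were not tested. Counts of called members: HSC against GMP in O-WT went from 4 to 2 without a filter, a setting for which the share of all genes called was not computed. It went to 7 without scaling and when scaled on abundant genes, where calls over all genes rose from 44.2% to 50.9% and 53.9%. CLP against GMP went from 6 to 3 in O-WT and to 2 in O-NR with the receptor covariate, where calls over all genes also fell, from 60.8% to 22.7% and from 50.1% to 22.7%. NR in HSCs went from 0 to 1 (*Fundc1*) with RUVr, the receptor covariate and abundant-gene scaling. In cohort 1 RUVr gave 2 calls for NR (*Sqstm1* and *Ulk1*) and 4 for O-NR-RC against O-WT (those 2, *Tax1bp1* and *Bnip3l*), all lower, against 0. Calls over all genes rose from 0.048% to 11.2% (375 higher, 3362 lower) and from 0.078% to 14.1% (559 higher, 4129 lower). Without scaling, the log2 difference of HSC against GMP in O-WT turned to 0.32 for *Bnip3* and 0.087 for *Tfeb*, CLP against GMP in O-WT to 0.057 for *Pink1* and 0.33 for *Optn*, and HSC against GMP in O-NR to 0.069 for *Fundc1*. Scaled on abundant genes these 5 were 0.45, 0.22, 0.20, 0.50 and 0.21, CLP against GMP in O-WT was 0.051 for *Bnip3*, and O-NR-RC against O-WT was 0.13 for *Tfeb*. With the receptor covariate HSC against GMP in O-WT was 0.16 for *Bnip3*, CLP against GMP in O-WT 0.078 for *Pink1*, HSC against CLP in O-NR -0.070 for *Tax1bp1* and 0.092 for *Tfeb*, and CLP against GMP in O-NR -0.20 for *Optn* and -0.063 for *Tfeb*. With DESeq2 size factors and the DESeq2 Wald test alike, HSC against GMP in O-WT was -0.16 for *Bnip3l*, -0.18 for *Fundc1* and -0.037 for *Sqstm1*, and CLP against GMP -0.023 for *Tfeb*. Without a filter these 4 were -0.21, -0.23, -0.090 and -0.21, HSC against CLP in O-NR was 0.18 for *Tfeb*, and CLP against GMP in O-NR -0.16 for *Optn* and -0.079 for *Tfeb*. Leaving out 1 library, HSC against GMP in O-WT ranged from -0.16 to 0.11 for *Bnip3*, -0.063 to 0.12 for *Bnip3l* and -0.15 to 0.16 for *Fundc1*; in O-NR, *Tfeb* ranged from -0.10 to 0.070 (HSC against CLP), *Bnip3l* from -0.0060 to 0.20 (HSC against GMP) and *Optn* from -0.051 to 0.19 (CLP against GMP). The count for NR in HSCs ranged from 0 to 1, the call being *Fundc1* without O-WT replicate 2, and *Calcoco2* in O-NR-RC against O-WT from -0.10 to 0.81.

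Deviations from group means correlated above 0.1 in 4 of 4 same-numbered pairs of O-WT HSCs and CLPs. They did so in 2 of the other 20 same-numbered pairs across cell types, 4 of 12 pairs of O-WT and O-NR, and 4 of 7 pairs of cohort 1 groups. In O-WT the pairs of HSCs and GMPs ran from -0.48 to -0.0090, and those of CLPs and GMPs from -0.46 to 0.013. Receptor sums in replicate order were 1441, 4494, 3252 and 2110 CPM in O-WT HSCs. They were 2965, 4135, 8004 and 2602 CPM in O-WT CLPs. Whether same-numbered libraries share a mouse was not tested. A replicate block changed no call (7, 4, 6, 6, 5 and 6 members between cell types, 0 for NR and withdrawal) and turned *Fundc1* in HSC against GMP in O-WT to -0.006. Depth limits *Calcoco2*, which had few reads, and cohort 1 is limited by 2 O-WT libraries.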
